A study of Homo sapiens with 4 samples.

Results

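The FAT, Dachsous and planar polarity genes are 10 genes named by symbol: the giant atypical cadherins FAT1, FAT2, FAT3 and FAT4, the FAT ligand DCHS1, the seven-pass cadherins CELSR1, CELSR2 and CELSR3, and the four-pass membrane proteins VANGL1 and VANGL2. They were taken from the 63856 genes of a count table by Ensembl identifier and from a second table of normalized values by symbol, and each of the 10 had 1 row in both. RNA-seq had been performed on MCF10A, a line of human mammary epithelial cells that does not form tumors, as wild type cells and as cells carrying human HSF1 cDNA in the lentiviral pLVX vector (HSF1-pLVX), with 2 libraries of each. Per the labels, the medium of both variants held horse serum, insulin, hydrocortisone, EGF and cholera toxin, the last of which the study's methods do not list. HSF1-pLVX cells were a transduced population selected with puromycin, and wild type cells are not described as transduced or selected, so the effects of the vector, of selection and of HSF1 cannot be told apart. Libraries with the empty vector were not analysed here. The study calls the replicates biological, while the labels do not say that they came from separate cultures.

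FAT cadherins are among the largest surface proteins of the cell. In flies, Fat and Dachsous bind each other across cell borders, orient cells within the plane of an epithelium and restrain growth through the Hippo kinases. CELSR proteins are the vertebrate counterparts of Flamingo and VANGL proteins those of Van Gogh, and together with Frizzled, Dishevelled and Prickle proteins they form the core planar polarity pathway, which gathers on opposite sides of a cell. In the mammary gland this pathway is known for its part in the shaping and branching of ducts.

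Library totals ran from 18688109 to 24184285 counts. Levels are given as CPM, counts scaled to a common library size after TMM scaling, and as CPM per kilobase of counted exon where genes are compared with each other. HSF1 itself was higher, with 194.8 ± 7.94 CPM for wild type against 990.5 ± 11.46 CPM for HSF1-pLVX (SD, n = 2). Reads of the transgene and of the cell's own HSF1 were not told apart. All 8 epithelial markers were present, with a summed level of 8890 and 8940 CPM in wild type and 6330 and 6710 CPM in HSF1-pLVX libraries. Within that list KRT5, TP63 and ITGA6 rose while KRT8, KRT18, KRT14, EPCAM and CDH1 fell. The 7 fibroblast markers summed to 7.78 and 10.8 CPM in wild type and 14.9 and 13.9 CPM in HSF1-pLVX libraries. Among them DCN rose from 1 and 3 to 94 and 87 counts, while COL1A2, COL3A1 and LUM had 3 counts or fewer in every library. COL1A1, not called, had 7.192 and 10.39 CPM in wild type and 10.71 and 9.212 CPM in HSF1-pLVX libraries. PDGFRA went from 6 and 4 to 1 and 1 counts, and PDGFRB from 2 and 0 to 10 and 5. The 5 endothelial markers summed to 2.1 to 3.14 CPM in wild type and 13.4 to 14.6 CPM in HSF1-pLVX libraries. Of these sums KDR gave 1.453 to 1.865 and 12.31 to 12.89 CPM. PECAM1, VWF, CDH5 and TEK were not tested, with 1 to 23 counts per library. CDH5 went from 8 and 4 to 5 and 1 counts, and TEK from 2 and 3 to 8 and 7. The 5 immune markers summed to 1.02 to 1.33 CPM in wild type and 58.6 to 83.3 CPM in HSF1-pLVX libraries. CD14 was the 1 tested gene among them, with a log2 fold change of 6.34. It gave 58.55 and 83.16 CPM of the HSF1-pLVX sums. CD3E went from 1 and 5 to 0 and 0 counts, and CD68 from 2 and 4 to 1 and 2. PTPRC was at 0 counts in every library, in a row that has a second copy in the normalized table. The part of these cell markers in the results below was not tested. In bulk RNA, fewer cells of a type and less RNA per cell cannot be told apart.

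Of the 10 genes, 9 passed the filter on low counts and were tested by edgeR's quasi-likelihood method, blocked on replicate number, and p-values were adjusted over all 15830 genes tested. FAT2, CELSR2 and CELSR3 were higher in HSF1-pLVX cells and FAT1, FAT4, CELSR1, VANGL1 and VANGL2 were lower, at an adjusted p of 0.05. Over all genes tested, 32.5% were called higher and 32.7% lower, 65.1% in all, so a call by itself says little about a gene. Without the block the 9 genes gave the same counts, 3 higher and 5 lower, where 65.9% of all genes were called and 33.2% were lower. DESeq2's Wald test with the block called 3 of the 9 genes higher and 4 lower, with CELSR1 no longer called. Of all genes it called 44.6%, 21.0% higher and 23.6% lower. At least 2-fold changes were found in 3 genes upwards, against 14.9% of all genes, and in 1 gene downwards, against 14.0%. The CPM of the groups did not overlap for 8 of the 9 tested genes, where 83.1% of all tested genes showed the same. The median log2 fold change was -0.27 over the 9 genes and 0.02 over all genes tested. With 2 libraries on each side, exact permutation of 1 gene's values stops at p = 0.33. The p-values given here rest on the spread between these libraries, which may be technical. In the fit with the block that spread is shared across genes and is not a gene's own.

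**Figure D1:**
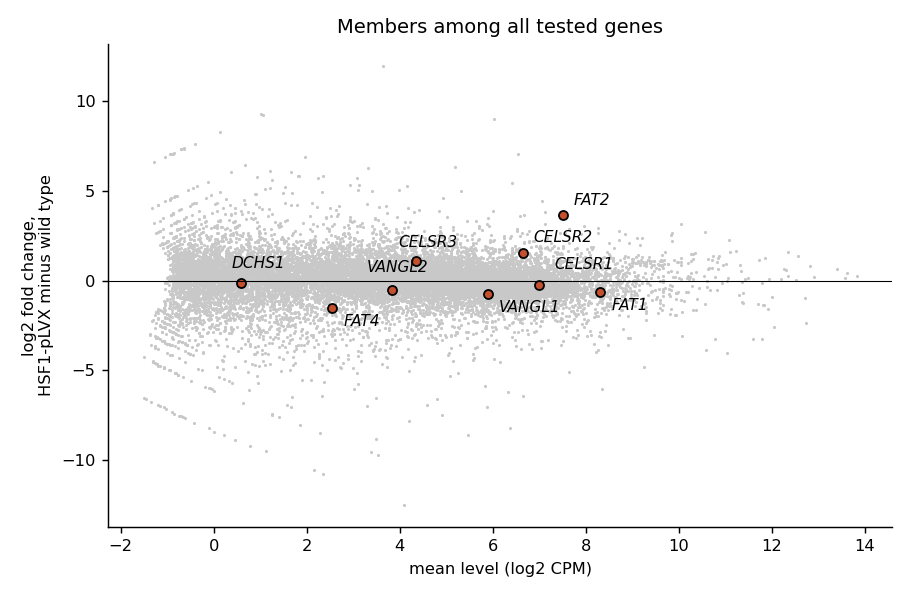
Each grey point is 1 of 15830 tested genes, placed by its mean level (log2 CPM) and its log2 fold change (HSF1-pLVX minus wild type); the 9 tested FAT, Dachsous and planar polarity genes are marked and named. FAT2 lies at 3.63, above 99.2% of tested genes, and CELSR1 and DCHS1 lie near 0.

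FAT2, an atypical cadherin found mainly in squamous and basal epithelia, changed most. It had 27.97 and 26.05 CPM in wild type libraries 1 and 2, and 330.9 and 336.3 CPM in the HSF1-pLVX libraries. Every HSF1-pLVX value was over 300 and every wild type value under 30. The level was 12.4-fold higher, a log2 fold change of 3.63 ± 0.128 (SE, edgeR's quasi-likelihood test, adjusted p = 5.04e-170), which exceeds 99.2% of all tested genes. Without the block the adjusted p in edgeR's test was 3.29e-12. Its counts were 525 and 484 in wild type and 8307 and 6681 in HSF1-pLVX libraries, so counting error was small. On chromosome 5 of hg38, FAT2 (ENSG00000086570.12) runs from 151504093 to 151568944 on the minus strand, and 4.1% of its 14537 counted bases are shared with exons of an unnamed gene on the other strand, ENSG00000271795. That gene had 7 and 20 counts in wild type and 100 and 64 counts in HSF1-pLVX libraries. Since the use of strand in the counting is not stated, reads of the overlap cannot be told apart by gene, and their number was not measured.

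CELSR2 and CELSR3 also rose. Both belong to the Flamingo family of adhesion receptors, whose members bind their like on the next cell. CELSR2 had 53.38 and 48.92 CPM in wild type and 144.2 and 150.8 CPM in HSF1-pLVX libraries. The groups lay far apart, with a log2 fold change of 1.53 ± 0.108 (SE, edgeR's quasi-likelihood test, adjusted p = 4.61e-44), or 2.88-fold. CELSR3, best known from the nervous system, was low in this epithelium. Its 13.1 and 12.7 CPM in wild type libraries became 25.73 and 28.94 CPM in the HSF1-pLVX libraries, a log2 fold change of 1.08 ± 0.128 (SE, edgeR's quasi-likelihood test, adjusted p = 3.02e-16). CELSR1, a partner of VANGL2 in the planar polarity of skin, moved the other way and by little. It had 140.4 and 139.9 CPM in wild type and 117.1 and 114.8 CPM in HSF1-pLVX libraries, which is 1.21-fold lower. The libraries within each group differed by less than 3 CPM and the groups did not overlap. Its log2 fold change was -0.27 ± 0.107 (SE, edgeR's quasi-likelihood test, adjusted p = 0.0181), and the call was lost with library size as the only scaling (adjusted p = 0.0746 in edgeR's test), without a filter on low counts (0.054) and under DESeq2's Wald test with the block (adjusted p = 0.0763).

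Promoter sequences from RefSeq (GRCh38.p14), 250 bases before to 50 after an annotated start, were at hand for 6 of the 10 genes: FAT1, FAT2, CELSR2, CELSR3, VANGL1 and VANGL2, with 8 windows in all because FAT1 and VANGL1 have a second one. FAT3, FAT4, DCHS1 and CELSR1 were not matched. The windows of the genes that rose are shown beside one window of VANGL1, which fell. That VANGL1 window was the only window of a gene that fell with a match. The other windows of genes that fell are not shown. Each of the 8 windows was searched on both strands for GAANNTTC, TTCNNGAA, CACCTG and GGAATG. GAANNTTC and TTCNNGAA are the head-to-head and tail-to-tail pairs of the heat shock element bound by HSF1. CACCTG is an E-box bound by SNAI and ZEB repressors, and GGAATG is the site of TEAD factors. Capitals mark matches.
FAT2, chr5:151591282-151591581, minus strand: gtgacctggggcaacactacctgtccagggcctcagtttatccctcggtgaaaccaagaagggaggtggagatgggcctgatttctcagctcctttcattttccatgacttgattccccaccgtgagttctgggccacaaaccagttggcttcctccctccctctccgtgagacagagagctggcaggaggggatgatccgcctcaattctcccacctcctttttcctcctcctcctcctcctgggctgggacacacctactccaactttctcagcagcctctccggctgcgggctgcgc
CELSR2, chr1:109249289-109249588, plus strand: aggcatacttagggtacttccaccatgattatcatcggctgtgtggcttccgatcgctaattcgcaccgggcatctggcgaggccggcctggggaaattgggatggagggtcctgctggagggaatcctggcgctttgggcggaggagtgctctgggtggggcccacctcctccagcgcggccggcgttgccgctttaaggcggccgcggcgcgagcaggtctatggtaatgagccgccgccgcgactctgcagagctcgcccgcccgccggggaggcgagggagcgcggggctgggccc
CELSR3, chr3:48662837-48663136, minus strand: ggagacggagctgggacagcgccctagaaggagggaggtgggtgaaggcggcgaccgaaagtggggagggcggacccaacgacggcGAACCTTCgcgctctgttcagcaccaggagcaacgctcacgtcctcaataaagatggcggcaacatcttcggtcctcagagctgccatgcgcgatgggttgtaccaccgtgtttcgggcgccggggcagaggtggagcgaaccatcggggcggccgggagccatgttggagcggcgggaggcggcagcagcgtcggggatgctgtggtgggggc
VANGL1, chr1:115641720-115642019, plus strand: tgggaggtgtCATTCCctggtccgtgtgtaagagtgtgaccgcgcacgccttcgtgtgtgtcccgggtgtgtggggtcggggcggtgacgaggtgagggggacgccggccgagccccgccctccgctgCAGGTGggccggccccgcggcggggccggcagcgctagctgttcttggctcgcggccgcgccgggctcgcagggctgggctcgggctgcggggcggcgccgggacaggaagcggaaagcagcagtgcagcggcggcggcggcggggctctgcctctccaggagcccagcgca
GAANNTTC was found in 1 of the 8 windows, that of CELSR3, beginning at position -164 from the start site, and in 6.77% of all 35116 promoter windows. TTCNNGAA was in none of the 8 and in 7.74% of all windows. CACCTG and GGAATG each occurred once, both on the reverse strand of the VANGL1 window shown, against 20.6% and 14.0% of all windows. They do not overlap there, although GAANNTTC and TTCNNGAA can overlap each other. The second VANGL1 window, the FAT1 windows and the VANGL2 window held no match to any of these motifs. The VANGL1 window shown thus does not stand for the genes that fell. The FAT2 window held 58.0% G and C and 7 CpG pairs, where the other 7 windows held 67.0 to 77.3% and 29 to 41 CpG pairs. Over all 35116 promoter windows the median was 58.7% G and C, so FAT2 lay near it and the other 7 above it. The annotated start of FAT2 lies 22387 bases upstream of the first base counted for the gene, so a first exon at that start was not counted. The start of CELSR2 lies 480 bases upstream of its first counted base, and its whole window lies outside the counted gene. The second starts of FAT1 and VANGL1 lie within the counted genes. A match describes letters only and was not tested as a site, and the 4 unmatched genes were not searched.

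FAT1, the most abundant of the 10 genes in wild type cells, is an atypical cadherin that is often mutated in squamous carcinomas. It had 431.5 and 338.7 CPM in wild type and 265.3 and 235.2 CPM in HSF1-pLVX libraries. The groups did not overlap, although the wild type libraries differed from each other by more than the nearest libraries of the groups did. The level was 1.54-fold lower, a log2 fold change of -0.61 ± 0.124 (SE, edgeR's quasi-likelihood test, adjusted p = 2.19e-06). FAT4, the partner of DCHS1 in vertebrate tissues, fell furthest. Its 9.749 and 7.804 CPM in wild type libraries compare with 3.386 and 2.618 CPM in the HSF1-pLVX libraries, a log2 fold change of -1.55 ± 0.203 (SE, edgeR's quasi-likelihood test, adjusted p = 1.61e-13), or 2.92-fold lower. It rests on 183 and 145 against 85 and 52 counts. DCHS1, the ligand, was not called and its groups overlapped. It had 1.705 and 1.184 CPM in wild type and 1.673 and 1.007 CPM in HSF1-pLVX libraries, from 20 to 42 counts. The log2 fold change was -0.11 (edgeR's quasi-likelihood test, adjusted p = 0.793), and its 95% interval from -0.80 to 0.58 leaves room for a change of either sign. Exons of DCHS1 overlap DCHS1-AS1 over 7.62% and ENSG00000255410 over 1.75% of their length. Both genes lie on the other strand and had 0 counts in every library. As the use of strand is not stated, reads of these overlaps cannot be told apart by gene either. FAT3 was at the floor, with 0 and 1 counts in wild type and 1 and 1 in HSF1-pLVX libraries, and was not tested. For a count of 1, the exact Poisson interval reaches 5.57 counts, counting error only, so a difference within that range was not detectable at this depth.

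The VANGL genes encode membrane proteins that recruit Prickle and bind each other. VANGL1 had 76.29 and 71.53 CPM in wild type and 45.33 and 43.64 CPM in HSF1-pLVX libraries, 1.66-fold lower. The groups lay further apart than the libraries within them, and the log2 fold change was -0.73 ± 0.103 (SE, edgeR's quasi-likelihood test, adjusted p = 5.88e-12). VANGL2, mutated in the looptail mouse with its open neural tube, had 16.25 and 17.28 CPM in wild type and 12.59 and 10.42 CPM in HSF1-pLVX libraries. These groups did not overlap either, with a log2 fold change of -0.54 ± 0.141 (SE, edgeR's quasi-likelihood test, adjusted p = 2.80e-04). Under DESeq2's Wald test with the block, the adjusted p of VANGL2 was 0.0499. When HSF1-pLVX replicate 2 was left out, in a fit without the block that assumes the lone library to vary like the others, FAT1, VANGL2 and CELSR1 were no longer called (adjusted p = 0.093, 0.0558 and 0.0988 in edgeR's quasi-likelihood test), and 2 of the 5 lower genes were left, FAT4 and VANGL1. In that fit 46.0% of all genes were called, 23.2% lower. FAT2, CELSR2 and CELSR3 were called higher whichever library was left out.

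**Figure D2:**
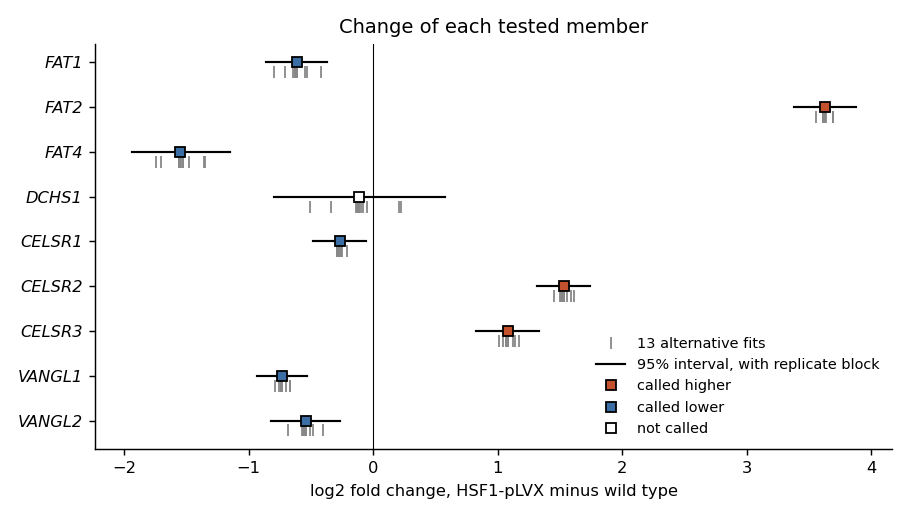
Squares (red for genes called higher, blue for lower, white for not called) give the log2 fold change (HSF1-pLVX minus wild type) of each tested gene with its 95% interval as a line, and grey ticks below give the values of 13 alternative fits. The intervals of FAT2, CELSR2 and CELSR3 lie above 1, above 1 and above 0, and that of DCHS1 spans 0.

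Read per kilobase, the order of the genes changed between the variants. In wild type cells FAT1 led with 23.8 ± 4.054 CPM per kilobase (SD, n = 2), ahead of CELSR1 with 10.94 ± 0.03005 and VANGL1 with 8.156 ± 0.3712. There followed CELSR2, VANGL2, FAT2, CELSR3, FAT4, DCHS1 and FAT3, and no neighbours in that order overlapped between libraries. FAT2 was sixth, at 1.858 ± 0.09332 CPM per kilobase, above 38.7% of tested genes. In HSF1-pLVX cells FAT2 led with 22.95 ± 0.2633, above 89.1% of tested genes, before FAT1 with 15.47 ± 1.314, CELSR2 with 11.94 ± 0.3782 and CELSR1 with 9.054 ± 0.1242 CPM per kilobase. Of the neighbours in this order, VANGL2 and CELSR3 overlapped. DCHS1 and FAT4 were among the lowest tested genes in HSF1-pLVX cells, above 4.43 and 6.78% of them.

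**Figure D3:**
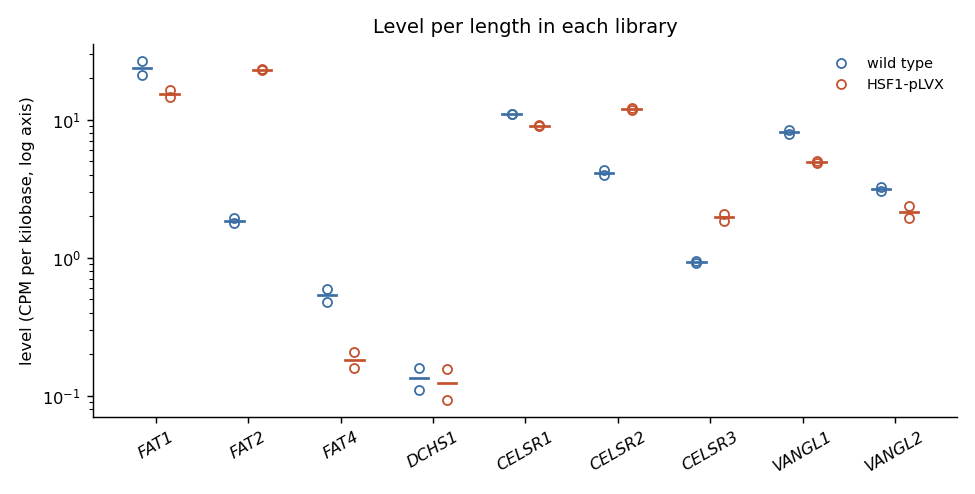
Levels in CPM per kilobase on a log axis for the 9 genes above the floor, with 1 circle per library and a bar at the mean of the 2 libraries of a group (wild type blue, HSF1-pLVX orange). FAT2 rises from the middle of the range to its top, and FAT1 falls from 23.8 to 15.47.

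Within the FAT family the leading gene thus differed between the variants. FAT2 held 5.96% of the counts of FAT1 to FAT4 in wild type replicate 1 (95% Wilson interval 5.49 to 6.48%) and 6.99% in replicate 2 (6.41 to 7.62%). In HSF1-pLVX replicates 1 and 2 its share was 55.2% (54.4 to 56.0%) and 58.6% (57.7 to 59.5%), and these intervals cover counting error only. FAT1 gave up most of that share, going from 92.0 and 90.9% to 44.2 and 41.0%. Because FAT2 gained more than FAT1 lost, the summed level of the family was higher, at 26.2 ± 4.228 CPM per kilobase for wild type against 38.61 ± 1.082 for HSF1-pLVX (SD, n = 2). The ratio of FAT2 to FAT1, both per kilobase, was 0.0721 and 0.0856 in wild type and 1.39 and 1.59 in HSF1-pLVX libraries.

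In the CELSR family the share of CELSR2 went from 25.8 and 24.3% of counts to 50.2 and 51.2%, and that of CELSR1 from 67.9 and 69.4% to 40.8 and 39.0%. CELSR2 stood at 0.394 and 0.363 of the level of CELSR1 per kilobase in wild type libraries, and at 1.28 and 1.36 of it in HSF1-pLVX libraries. The order of the 2 genes in both HSF1-pLVX libraries was thus the reverse of that in both wild type libraries. The summed level rose from 16.02 ± 0.3041 to 22.97 ± 0.4172 CPM per kilobase (SD, n = 2). The VANGL pair differed from both families. VANGL2 held 17.6 and 19.5% of the counts in wild type and 21.7 and 19.3% in HSF1-pLVX libraries, ranges that overlap, while the summed level was 11.3 ± 0.2333 and 7.063 ± 0.4186 CPM per kilobase (SD, n = 2), or 1.6-fold lower. With 2 libraries a group, the exact permutation test cannot go below p = 0.33 for a share, and the shares are given without a test.

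**Figure D4:**
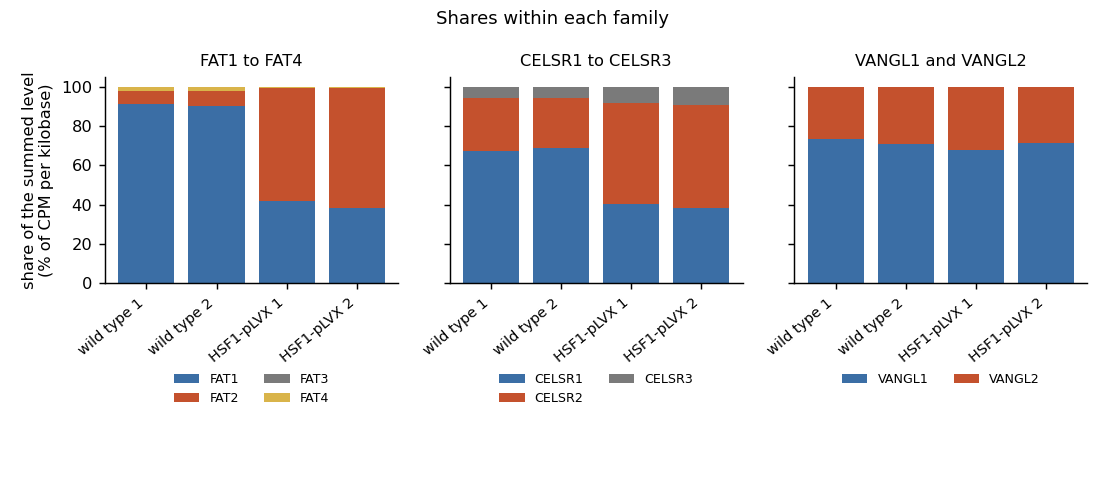
Bars stack the share of each gene in the summed CPM per kilobase of its family (percent), with 1 bar for each of the 4 libraries. FAT2 and CELSR2 take over 50% in both HSF1-pLVX libraries, while the VANGL bars stay alike.

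The deposited normalized values, log2-like numbers from the authors' DESeq2 normalization, gave the same order of sizes. The study's rule of a ratio over 2.0 or under 0.50 in both replicates was passed upwards by FAT2, with ratios of 11.2 and 12.4, and CELSR2, with 2.59 and 3.02. FAT4 passed it downwards, with 0.385 and 0.394. CELSR3 missed it through replicate 1, with ratios of 1.85 and 2.18. Over all 22321 rows of that table, 5.0% passed upwards and 6.42% downwards.

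The profiles most like those of FAT2 and FAT4 were sought among tested genes within 1 log2 unit of their mean level, by the Euclidean distance between centred log2 CPM values over the 4 libraries. For FAT2 the nearest of 3221 genes were PHGDH, an enzyme of serine synthesis (distance 0.13), TNNI2, a troponin (0.3), and the cytokine IL1B (0.5). For FAT4 the nearest of 2867 genes were PPP1R3B-DT, a long noncoding RNA (0.11), GAREM2, an adaptor of growth factor signaling (0.13), and the transcription factor KLF12 (0.15). With 4 libraries in 2 groups, the distance mostly reflects the size of the change between the groups.

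The partners of these proteins were taken from 6 lists, written by their known roles, with 68 entries in all. Their counts below are to be read against the 32.5% of all tested genes called higher and 32.7% called lower. Of 12 core planar polarity partners, 6 were higher and 4 lower at an adjusted p of 0.05, where 32.5% and 32.7% of all tested genes were, and the median log2 fold change was 0.29. PTK7, a pseudokinase that works with VANGL2, rose from 107.8 ± 4.113 to 235.0 ± 10.98 CPM (SD, n = 2), a log2 fold change of 1.12. PRICKLE3 rose by 1.30 on the log2 scale, from 13.74 and 13.78 to 33.18 and 34.63 CPM, while PRICKLE1 fell by 0.69. The receptor FZD3 fell by 0.64. PRICKLE4 rose by 1.81 on 3 to 16 counts per library. The adaptor DVL1 fell by 0.41. SCRIB, one of the 6, had 18 to 64 counts and a second copy in the normalized table, whose reads the counting could split, and was not called without the block (adjusted p = 0.137, edgeR's quasi-likelihood test). DESeq2's Wald test with the block called 3 genes of this list higher and 3 lower, where it called 21.0% and 23.6% of all genes. PRICKLE1, PRICKLE4 and SCRIB were among those not called there (adjusted p = 0.176, 0.232 and 0.321, DESeq2's Wald test).

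Among 8 listed genes of noncanonical Wnt signaling, a choice of the cues and receptors that orient planar polarity, 6 were tested. Of these 5 were lower, and the median log2 fold change was -2.32. Over all genes 32.7% were lower. The ligand WNT5B had 24.98 and 23.3 CPM in wild type and 0.8365 and 1.107 CPM in HSF1-pLVX libraries, a log2 fold change of -4.65 ± 0.202 (SE, edgeR's quasi-likelihood test, adjusted p = 3.45e-113). The receptor ROR1 fell by 2.65 and the co-receptor GPC4, a glypican, by 2.49 on the log2 scale. WNT5A had 25.68 and 21.42 against 5.696 and 4.883 CPM. RYK, another Wnt receptor, had a log2 fold change of 0.18 and was not called (adjusted p = 0.11 in edgeR's test). FZD7, a Frizzled receptor, had a log2 fold change of -1.54, close to the -1.55 of FAT4. The list does not hold every Wnt gene. PTK7, FZD6 and FZD3 were counted with the core partners, with log2 fold changes of 1.12, 0.57 and -0.64. The ligand WNT4, which is in none of the lists, had a log2 fold change of 3.378.

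Of 11 effectors downstream of planar polarity, 2 were higher, 3 lower and 6 not called, with a median log2 fold change of 0.01, while 65.1% of all tested genes were called. The GTPase RHOA fell by 0.73 and its kinase ROCK1 fell by 0.31. The formin DAAM1 fell by 0.25, whereas FUZ, needed for cilia, rose by 0.86 and DAAM2 by 1.79 on 5 to 22 counts. Under DESeq2's Wald test with the block ROCK1, DAAM1 and DAAM2 were not called (adjusted p = 0.0555, 0.127 and 0.156), which left 1 effector higher and 1 lower. Of 10 partners of FAT and Dachsous proteins, 7 were tested, with 3 higher and 3 lower, against 32.5% and 32.7% of all tested genes. FJX1, counterpart of the fly kinase Four-jointed that modifies FAT and Dachsous, rose by 0.62 and EVL by 0.44, and LIX1L rose from 4.581 and 6.082 to 15.89 and 14.19 CPM. VASP, which with other Ena/VASP proteins binds the FAT1 tail and promotes actin growth, fell by 0.82, AMOTL1 by 0.69 and ENAH by 0.39. DCHS2, LIX1 and DLG5 had 2 counts or fewer in every library, and for DCHS2 and DLG5 a second copy in the normalized table could have taken reads.

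Of the 15 genes of the Hippo core, 9 were lower and 1 was higher, with a median log2 fold change of -0.46. Over all tested genes 32.7% were lower, 32.5% higher and 65.1% called in all. WWC1, the scaffold known as KIBRA, fell by 2.76 from 406.1 and 378.4 to 65.13 and 51.54 CPM. The kinase LATS2 fell by 1.75 and NF2, the scaffold merlin, by 1.47, whereas LATS1 had a log2 fold change of -0.01 and was not called (adjusted p = 0.923, edgeR's quasi-likelihood test). TAOK3 rose by 0.29. The coactivators YAP1 and WWTR1 were not called, with log2 fold changes of -0.23 and -0.14 (adjusted p = 0.0729 and 0.246, edgeR's quasi-likelihood test), though YAP1 was called without the block (adjusted p = 0.0327 in edgeR's test). Of 12 genes of the apical-basal polarity complexes, 8 were lower and 1 higher, against 32.7% and 32.5% of all tested genes, with a median log2 fold change of -0.80. CRB3, the epithelial Crumbs protein, had 39.26 and 38.11 CPM in wild type and 6.971 and 7.148 CPM in HSF1-pLVX libraries, a log2 fold change of -2.45. LLGL2, of the lateral Scribble complex, fell by 1.89 and MPP5, the Crumbs partner PALS1, by 1.36. PARD6G rose by 0.43.

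**Figure D5:**
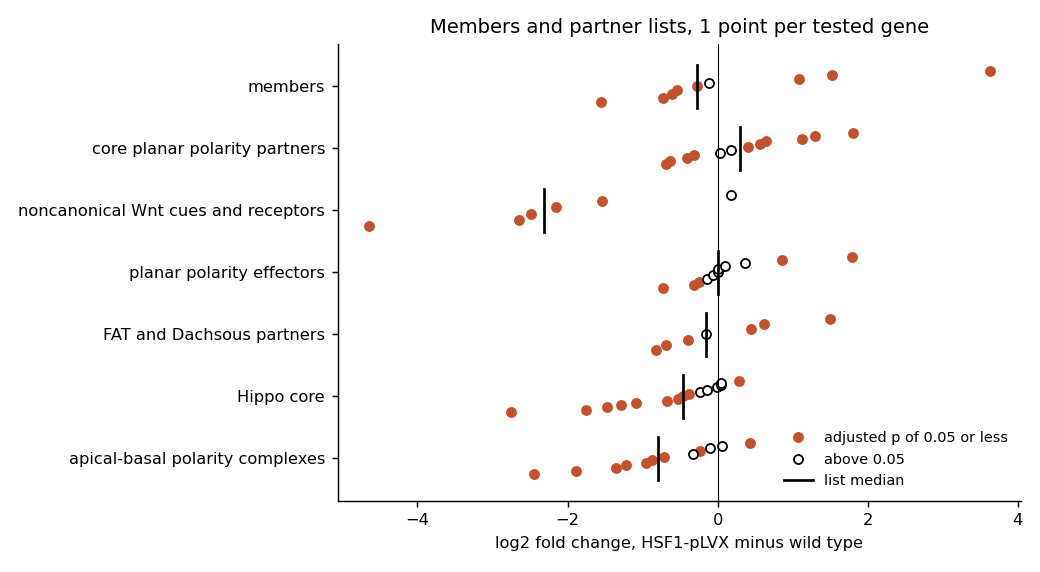
Each point is the log2 fold change (HSF1-pLVX minus wild type) of 1 tested gene in the 10 polarity genes (top row, 9 tested) or in 1 of 6 partner lists, filled at an adjusted p of 0.05 or less, with a bar at the list median. The noncanonical Wnt list has its median at -2.32 and the core planar polarity partners at 0.29.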

How the data were processed

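The authors deposited raw counts per gene of 4 libraries (Ribo-Zero Plus total RNA libraries, paired-end reads of 76 bp), made per their methods and processing notes with HISAT2 2.0.5 on hg38, SAMtools 1.13 and featureCounts 1.6.5; settings for strand, overlap and multi-mapping reads are not given in the sources used here. The authors also deposited log2-like values normalized with DESeq2 1.32.0, and a blind variance-stabilizing transformation run here matched them to within 5.8e-05 for the 10 genes. Groups and replicate numbers come from the sample titles. Ensembl identifiers were paired with symbols through a gene name table and RefSeq. Positions and counted lengths are those of the deposited count table.

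The main test was edgeR 4.0.16 (R 4.3.3) with TMM scaling, filterByExpr, a quasi-likelihood fit blocked on replicate number and Benjamini-Hochberg adjustment over 15830 genes, with calls at 0.05. The block follows the study's ratios within replicate number. Same-numbered deviations did not correlate (0.000143 over tested genes, -0.113 above 8 CPM), and nothing in the labels ties the numbers to a shared culture. With the block the prior degrees of freedom were infinite, so very small p-values rest on the spread shared across genes. Counts of replicate pairs differed beyond sampling noise (chi-square per degree of freedom 7.1 and 9.027). Standard errors are the fold change over the root of the F statistic. The fitting script was tested on simulated data with the same dispersion for every gene and no replicate effect. Such data cannot check the very small p-values, because real genes differ in spread. Limma 3.58.1 (voom) and DESeq2 1.42.0 were alternatives, with other scalings, filters and thresholds, no block and each library left out.

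The genes named are the 10 genes, up to 3 rises and 3 falls of each list among called genes, overlapping and neighbouring genes, and the profiles nearest to the largest rise and fall. WNT4, WNT5A, FZD6, FZD7, SCRIB and uncalled genes are named as well, and these were chosen after their values were seen. The 10 genes and all lists were chosen with earlier results of these data known, so no p is given over a list.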

Additional observations from a re-analysis of the deposited data

How the results depend on the processing

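Across 13 alternative fits of 9 tested genes, 109 of 117 values kept their direction and their side of the threshold, 6 lost the call and 2 reversed. FAT2, CELSR2 and CELSR3 were called higher in each fit. Without the replicate block, 3 genes were higher and 5 lower, as with it. With the numbers crossed, an alternative added after seeing the data, these counts were also 3 and 5. DESeq2's Wald test without the block, which was not planned either, gave 3 and 5 as well. With a 2-fold change also required, 1 gene was lower, which follows from the stricter call. With each library left out, in fits without the replicate block, the number lower ran from 2 to 5, and without HSF1-pLVX replicate 2 it was 2. DCHS1 reversed on 20 to 42 counts, to 0.21 without wild type replicate 1 and to 0.22 without HSF1-pLVX replicate 2. CELSR1 lost its call in 4 fits. With DESeq2 (Wald test, replicate block) the core planar polarity partners called higher were 3 and not 6, the effectors called higher 1 and lower 1, and the Hippo core and the apical-basal complexes called higher 0 and 0, also at an unadjusted p under 0.05, where edgeR called 1 gene in each. The cause was not tested. On CPM per kilobase instead of counts, the mean shares were 59.5% for FAT2 and 52.0% for CELSR2 in HSF1-pLVX cells, and 27.8 and 30.4% for VANGL2 in wild type and HSF1-pLVX cells, which follows from the lengths of the genes. Depth limits FAT3 and DCHS1.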

Other observations

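The nearest tested gene on each side of the 10 genes was also followed. Of 20 such neighbours, 9 were higher, 4 lower and 7 not called at an adjusted p of 0.05, where 32.5% of all tested genes were higher and 32.7% lower. SLC26A6, an anion exchanger 976 bases from CELSR3, went from 330 and 400 counts in wild type to 1636 and 1571 counts in HSF1-pLVX libraries, a log2 fold change of 1.88 ± 0.111 (SE). On its other side NCKIPSD rose by 0.78 on the log2 scale. PSRC1, a spindle protein gene 3806 bases from CELSR2, had 79 and 79 against 540 and 342 counts, a log2 fold change of 2.19, and SARS1, the seryl-tRNA synthetase gene on the other side, one of 0.53. Both neighbours of CELSR2 and both of CELSR3 were thus called higher, like the genes between them. Elsewhere TRMU, 3494 bases from CELSR1, rose by 0.84 while CELSR1 fell. Beside VANGL1, which fell, TSPAN2 had a log2 fold change of -4.59 and NHLH2 one of 1.82. The neighbours of FAT2 moved in opposite directions: SLC36A1, an amino acid transporter gene 11712 bases away, fell by 1.44, and ENSG00000260581, 83331 bases away on the other side, rose by 2.89 on 5 and 4 against 34 and 47 counts. DCHS1, which was not called, lies 1862 bases from TPP1, a lysosomal peptidase gene that rose by 1.16. Whether neighbours share a change more often than other genes was not tested.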
